A study of Mus musculus with 2 samples.

Results

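NF-kB is a family of transcription factors that bind DNA as dimers of the subunits c-Rel, RelA, RelB, p50 and p52. The canonical subunits are held in the cytoplasm by IkB proteins until the IkB kinase complex marks those for degradation. In the noncanonical arm, receptors of the TNF family such as OX40 lead to the trimming of the precursor p100 to p52, which partners RelB. In activated CD4 T cells both arms serve costimulation, survival and cytokine transcription, and NF-kB is known to induce the genes of several of its own inhibitors. The genes described here are the subunit genes Rel, Rela, Relb, Nfkb1 and Nfkb2, the IkB genes Nfkbia, Nfkbib and Nfkbie, the IkB-like coactivator gene Bcl3, and Tnfaip3, which encodes the deubiquitinase A20. They were chosen by gene symbol among the probe sets that the platform annotation pairs with 1 symbol. Of these 10 genes, 9 had a value, from 12 probe sets, among 17097 genes in all, and Nfkb1 was not analysed here.

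The 2 Affymetrix HT MG-430 PM arrays compare T cells activated with OX40L-Tg APC, which carry a transgene for the OX40 ligand, and T cells activated with Wt APC. APC are antigen-presenting cells, here splenocytes that had been depleted of CD3-positive cells and briefly treated with mitomycin C at 50 µg/ml. Both arrays hold naive CD4 T cells without Foxp3 from 6-week-old C57/Bl6 mice with a Foxp3-eGFP reporter, activated with anti-CD3 antibody in solution for 48 hours and sorted again as living CD4 T cells. The labels used here do not name the promoter of the transgene or say how many mice were pooled. There was 1 array per condition, so no spread between cultures or mice was measured and no difference could be tested. Values are intensities in arbitrary units from RMA, and a difference is the log2 value with OX40L-Tg APC less that with Wt APC. The probe set with the highest mean stands for a gene with several. Each array holds RNA of a bulk sample, so fewer cells of a type and less RNA per cell cannot be told apart.

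On the deposited scale all 9 genes read higher with OX40L-Tg APC, but with the median of the array's poly-A controls subtracted 2 read higher and 7 lower. The share of all genes that read higher on the deposited scale was 54.0% of the 10541 genes above the floor, which is the median intensity of an array reached on at least 1 array. The median of all genes was 0.02 on the deposited scale and -0.57 with the poly-A median subtracted. All 9 genes lay above it on the deposited scale. The subtraction takes 1 value from every gene, so it cannot change that position. The median difference of the 9 genes was 0.33. At a size of at least 1.5-fold, 2 of the 9 genes, Tnfaip3 and Nfkb2, were higher, against 3.85% of all genes, and 0 were lower, against 3.36%. At 2-fold or more, Tnfaip3 alone was higher, against 1.56% of all genes, and 0 genes of the family were lower, against 1.17%. All 9 genes were above the floor and above the background level on both arrays, so none entered through 1 array only. That level is the 95th percentile of genes restricted to other organs and stood at 45.9 units with OX40L-Tg APC and 46.7 units with Wt APC.

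**Figure D1:**
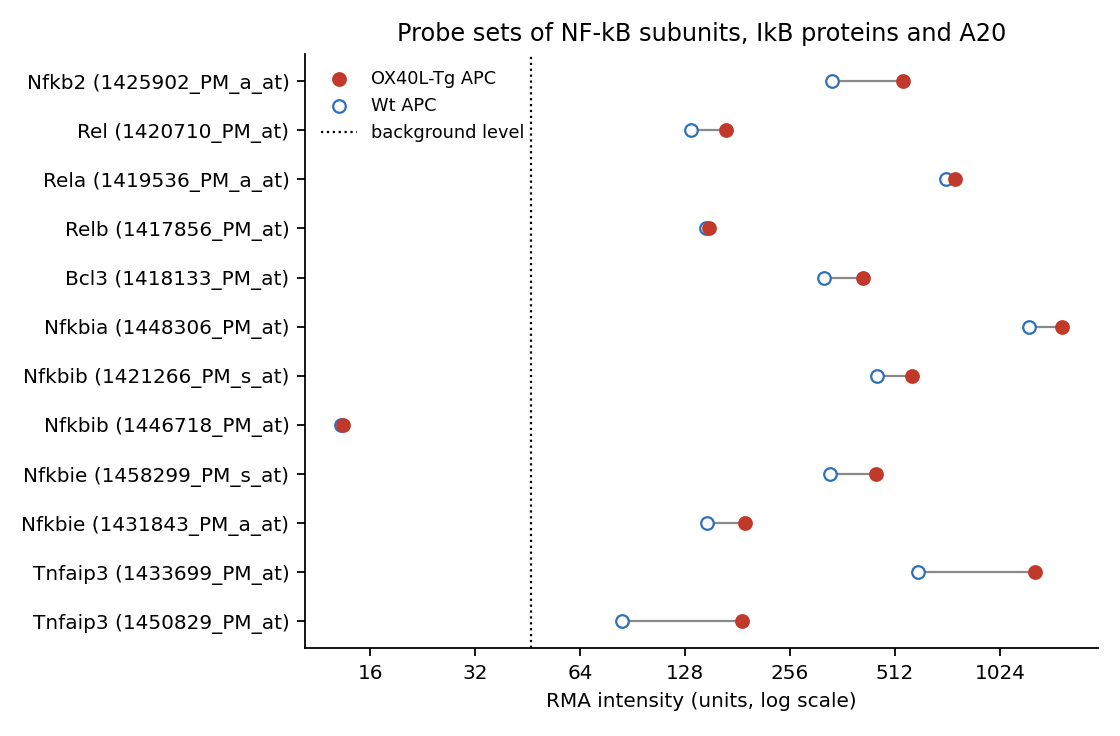
Intensity (log axis) of the 12 probe sets of the 9 genes, with filled circles for OX40L-Tg APC, open circles for Wt APC and a dotted line at the mean background level of both arrays. Each filled circle lies to the right of or on its open circle on this deposited scale (7 of the 9 genes turn when the poly-A median is subtracted), and the widest gaps are those of both Tnfaip3 probe sets and of Nfkb2.

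RefSeq promoter windows, from 250 bases before to 50 after a transcript start on GRCm38.p6, were at hand for 8 of the 9 genes, all but Relb. They are shown because NF-kB is known to act on genes of its own family. Windows were searched on both strands for the NF-kB consensus site and for the looser form GGGNNNNNCC, which every consensus match also meets. Of the 8 genes, 6 held a consensus match, namely Nfkb2, Tnfaip3, Nfkbia, Nfkbie, Bcl3 and Rel. Over all 27025 genes with a window, 5.14% held one, and among the 8580 of these above the floor 6.20% did. The looser form was in 7 of the 8 genes and in 53.5% of all genes. A match is a stretch of letters and shows no binding.

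The windows of the 6 genes with a match and of Rela, which had none, are printed from 5′ to 3′ on the strand of the gene, with consensus matches of either strand in capitals. They lie at chr19:46304487-46304786 (+ strand) for Nfkb2, chr10:19015361-19015660 (- strand) for Tnfaip3, chr12:55492598-55492897 (- strand) for Nfkbia and chr17:45555450-45555749 (+ strand) for Nfkbie. Those of Bcl3, Rel and Rela lie at chr7:19822706-19823005 (- strand), chr11:23770920-23771219 (- strand) and chr19:5637291-5637590 (+ strand).
Nfkb2: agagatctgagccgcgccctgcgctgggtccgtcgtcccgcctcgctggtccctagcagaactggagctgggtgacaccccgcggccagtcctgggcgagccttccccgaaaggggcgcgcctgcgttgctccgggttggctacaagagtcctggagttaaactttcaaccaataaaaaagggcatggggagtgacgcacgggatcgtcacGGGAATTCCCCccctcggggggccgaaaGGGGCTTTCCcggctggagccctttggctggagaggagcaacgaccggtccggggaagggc
Tnfaip3: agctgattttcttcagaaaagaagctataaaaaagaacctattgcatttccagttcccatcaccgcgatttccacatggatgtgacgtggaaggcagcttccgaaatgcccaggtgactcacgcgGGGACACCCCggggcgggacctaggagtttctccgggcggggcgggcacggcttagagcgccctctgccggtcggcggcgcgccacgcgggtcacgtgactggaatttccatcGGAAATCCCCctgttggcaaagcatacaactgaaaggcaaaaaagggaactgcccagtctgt
Nfkbia: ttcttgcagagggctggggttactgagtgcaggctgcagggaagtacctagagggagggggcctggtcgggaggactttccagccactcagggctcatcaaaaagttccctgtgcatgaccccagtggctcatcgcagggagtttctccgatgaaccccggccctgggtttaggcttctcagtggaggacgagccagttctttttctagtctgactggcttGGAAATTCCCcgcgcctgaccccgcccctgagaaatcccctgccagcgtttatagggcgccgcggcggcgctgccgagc
Nfkbie: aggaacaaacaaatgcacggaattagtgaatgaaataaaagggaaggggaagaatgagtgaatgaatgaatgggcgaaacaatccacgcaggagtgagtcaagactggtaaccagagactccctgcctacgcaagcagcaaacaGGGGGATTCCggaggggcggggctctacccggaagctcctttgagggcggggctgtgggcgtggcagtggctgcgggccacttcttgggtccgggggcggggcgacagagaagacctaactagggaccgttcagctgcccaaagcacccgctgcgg
Bcl3: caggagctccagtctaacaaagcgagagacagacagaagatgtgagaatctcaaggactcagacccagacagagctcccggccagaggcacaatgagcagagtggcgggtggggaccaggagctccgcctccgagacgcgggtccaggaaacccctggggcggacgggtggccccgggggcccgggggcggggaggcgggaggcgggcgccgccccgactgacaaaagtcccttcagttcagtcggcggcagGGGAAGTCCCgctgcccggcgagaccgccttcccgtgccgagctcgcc
Rel: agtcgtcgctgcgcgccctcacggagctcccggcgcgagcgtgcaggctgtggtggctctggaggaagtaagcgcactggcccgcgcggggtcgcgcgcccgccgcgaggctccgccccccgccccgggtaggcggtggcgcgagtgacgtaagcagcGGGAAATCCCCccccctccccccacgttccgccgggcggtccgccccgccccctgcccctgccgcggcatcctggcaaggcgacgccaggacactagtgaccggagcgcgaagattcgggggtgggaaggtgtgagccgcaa
Rela: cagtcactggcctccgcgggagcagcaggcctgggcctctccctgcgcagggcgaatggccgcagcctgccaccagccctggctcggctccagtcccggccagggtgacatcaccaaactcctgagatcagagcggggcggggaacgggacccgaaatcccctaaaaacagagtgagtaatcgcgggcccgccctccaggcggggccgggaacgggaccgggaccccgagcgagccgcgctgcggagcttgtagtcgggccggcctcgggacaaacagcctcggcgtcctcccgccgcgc

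The Nfkb2 window shown holds 2 separate stretches, the nearer of which, GGGGCTTTCC, begins 11 bases before the start, and its other 2 windows, which belong to later starts and overlap each other, hold GGGACTTTCC. Tnfaip3 also has 2 stretches in the window shown, with GGGGATTTCC on the opposite strand 12 bases before the start, and none in the window of its other start. The Nfkbia match, GGGAATTTCC on the opposite strand, begins 29 bases before the start, and the Nfkbie match, GGGGGATTCC, 106 bases before it. The Rel stretch begins 92 bases before the start, whereas that of Bcl3, GGGACTTCCC on the opposite strand, lies just inside the transcript. Rela and Nfkbib, with no consensus match in these windows, differed by 0.09 and 0.33 on the deposited scale. The 6 genes with a match differed by 0.32 to 1.11, so the ranges overlap.

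**Figure D2:**
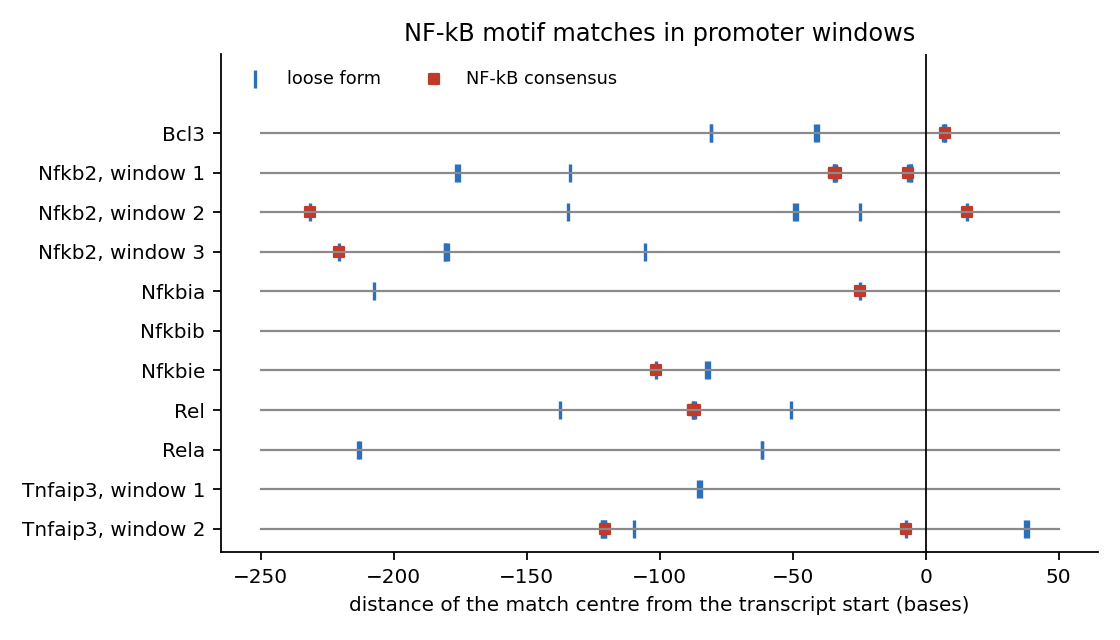
Position of the centre of each motif match relative to the transcript start, in bases, in the 11 promoter windows of 8 genes, with squares for the NF-kB consensus and ticks for the looser form. Squares stand in windows of 6 genes and in none of Rela and Nfkbib. Windows of Nfkb2, Tnfaip3 and Bcl3 hold stretches that begin within 12 bases of a start.

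Among the subunit genes, Nfkb2 had the largest difference. Nfkb2, which encodes the precursor p100 and its product p52, read 539 units with OX40L-Tg APC and 338 units with Wt APC (probe set 1425902_PM_a_at). The difference of 0.68, or 1.60-fold, was above that of 97.0% of all genes above the floor. Rel, which encodes c-Rel, a subunit that T cells need for IL-2 transcription, read 168 units with OX40L-Tg APC and 133 units with Wt APC (1420710_PM_at). Its difference was 0.33, or 1.26-fold, above that of 89.7% of genes.

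Rela and Relb, the genes of transactivating partners in the common dimers, had the smallest differences of the family. Rela, which encodes RelA (p65), the partner of p50 in the classical dimer, read 760.2 units with OX40L-Tg APC and 716 units with Wt APC, a difference of 0.09. Relb, whose product pairs with p52 in the noncanonical arm, read 150.0 units with OX40L-Tg APC and 147 units with Wt APC. Its difference was 0.03. The Rela difference was above that of 64.3% of genes above the floor, and the Relb difference above that of 53.2%. The 4 subunit genes thus spanned differences from 0.03 to 0.68, with a median of 0.21, and the gene for p100 and that for its partner RelB stood at the ends of that range.

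The 5 genes of inhibitors and IkB-like proteins had a median difference of 0.37, and their lowest value was 0.32. Tnfaip3 had the largest difference of the family. Its product A20 edits ubiquitin chains on signalling proteins and restrains the IkB kinase. Tnfaip3 read 1291 units with OX40L-Tg APC and 598 units with Wt APC by 1 probe set (1433699_PM_at), a difference of 1.11, or 2.16-fold. By the other (1450829_PM_at) it read 186 units with OX40L-Tg APC and 84.3 units with Wt APC, a difference of 1.14, or 2.21-fold. The probe sets read at very different intensities and gave nearly the same difference, which was above that of 98.8% of genes by either.

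The 3 classical IkB genes lay close together. Nfkbia, which encodes IkBα, the inhibitor that is resynthesised fastest after activation, read 1547 units with OX40L-Tg APC and 1243 units with Wt APC, a difference of 0.32. Nfkbib, which encodes IkBβ, read 572 units with OX40L-Tg APC and 454 units with Wt APC, a difference of 0.33. That probe set (1421266_PM_s_at) is marked as shared between transcripts, and the other (1446718_PM_at) was below background on both arrays, at 13.3 units with OX40L-Tg APC and 13.2 units with Wt APC. Nfkbie, which encodes IkBε, read 453 units with OX40L-Tg APC and 334 units with Wt APC, a difference of 0.44. Its other probe set read 189.7 units with OX40L-Tg APC and 148 units with Wt APC, a difference of 0.36. The 3 genes therefore stood at 1.24-fold, 1.26-fold and 1.35-fold, each below 1.5-fold.

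Bcl3, a nuclear IkB-like protein that binds p50 and p52 dimers and can turn them into activators, read 415 units with OX40L-Tg APC and 320.1 units with Wt APC. Its difference of 0.37, or 1.30-fold, was above that of 91.4% of genes. Bcl3 and Relb are neighbours on mouse chromosome 7, with 10 protein-coding genes between them in the RefSeq order of genes. Of the 8 of those with a value, Clptm1 alone was above background on either array, and it read 694 units with OX40L-Tg APC and 756 units with Wt APC, a difference of -0.12.

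Array controls are set beside these differences as values. The arrays carry probe sets for bacterial transcripts that labelling kits supply as poly-A RNA to be added before labelling, and others for transcripts added at hybridization. The sources used here do not give the amounts that were added. Of 24 poly-A control probe sets, 14 were above background on both arrays. All 14 read higher with OX40L-Tg APC, by 0.31 to 0.74, with a median of 0.59. They target the transcripts dap, lys, phe and thr, mostly by several probe sets each, so they are not 14 independent readings. The 18 hybridization controls differed by -0.03 to 0.32, with a median of 0.10. Of the 9 genes, Tnfaip3 alone lay above the highest poly-A control, 7 lay at or below the poly-A median, and 6 lay above the highest hybridization control. With the poly-A median subtracted, Tnfaip3 differed by 0.52 and Nfkb2 by 0.09, and the other 7 genes by -0.56 to -0.15. The part of the poly-A shift in the results was not tested.

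**Figure D3:**
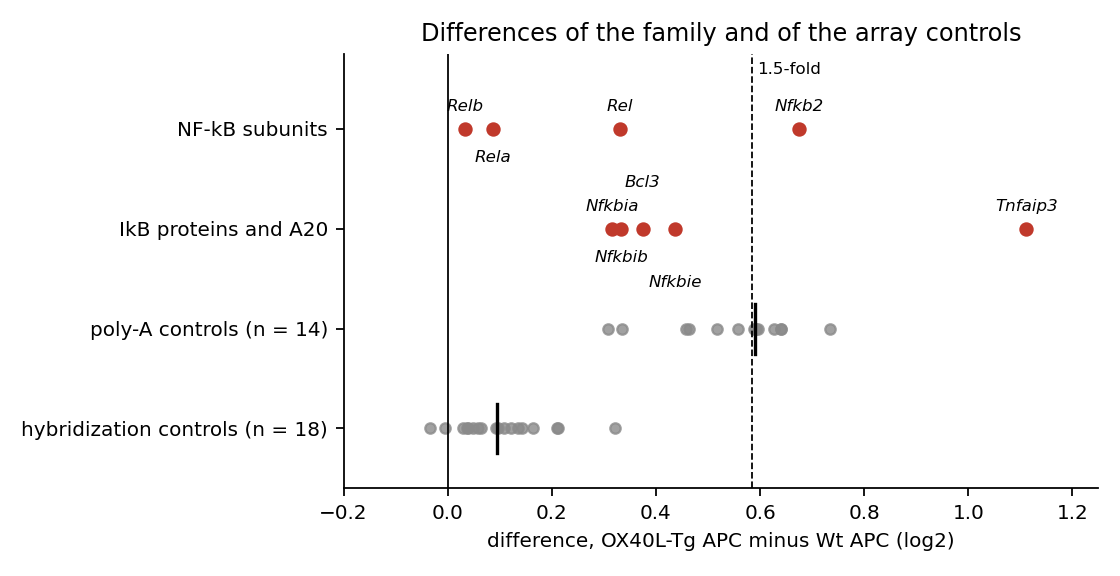
Difference between OX40L-Tg APC and Wt APC (log2) for each of the 4 subunit genes and the 5 inhibitor genes, above the 14 poly-A and 18 hybridization control probe sets, whose medians are black bars, with a dashed line at 1.5-fold. Tnfaip3 at 1.11 stands to the right of all controls, Nfkb2 at 0.68 stands among the poly-A controls, and 7 genes lie at or left of the poly-A median of 0.59, so that they turn below 0 when it is subtracted.

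Among markers of APC, most of those of B cells and of MHC class II presentation read higher with OX40L-Tg APC on the deposited scale. Of 10 B cell markers above the floor, 9 read higher with OX40L-Tg APC, with a median of 0.35, and 4 were at least 1.5-fold higher, against 3.85% of all genes. The summed level of all 14 with a value was 1963 units with OX40L-Tg APC and 1317 units with Wt APC. Fcer2a, which encodes the IgE receptor CD23, read 519.9 units with OX40L-Tg APC and 259 units with Wt APC. Cd79b, a chain of the B cell receptor, read 313 units with OX40L-Tg APC and 166 units with Wt APC, and Blnk, an adaptor of that receptor, read 302 units with OX40L-Tg APC and 197 units with Wt APC. The fourth gene past 1.5-fold, Ebf1, was below background on both arrays, as was Pax5, the factor that defines B cells. Cd79a, the other chain of the receptor, read 135 units with OX40L-Tg APC and 116 units with Wt APC. Of 9 genes of MHC class II presentation, 8 read higher and 2, H2-DMb2 and H2-DMb1, were at least 1.5-fold higher, against 3.85% of all genes. Their median was 0.41, and the summed level over all 10 was 4025 units with OX40L-Tg APC and 3025 units with Wt APC. H2-DMb2, a chain of the peptide-loading factor, read 184 units with OX40L-Tg APC and 102 units with Wt APC. H2-DMb1 read 57.5 units with OX40L-Tg APC and was below background, at 35.8 units, with Wt APC. Cd74, the invariant chain, read 1346 units with OX40L-Tg APC and 901 units with Wt APC, and H2-Ab1, a class II chain, read 535 units with OX40L-Tg APC and 456 units with Wt APC.

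Dendritic cell markers had a median of 0.19 over 9 genes, 7 of them higher, and past 1.5-fold 2 were higher, against 3.85% of all genes, and 1 was lower, against 3.36%. They summed to 2872 units with OX40L-Tg APC and 4030.4 units with Wt APC. The lower sum rests on Irf8, a transcription factor that dendritic cells need, which read 1133 units with OX40L-Tg APC and 2633 units with Wt APC. Without Irf8, left out after seeing the data, the sum was 1739 units with OX40L-Tg APC and 1398 units with Wt APC. Their defining markers Itgax and Zbtb46 were below background on both arrays, as were all 13 macrophage and monocyte markers, Lyz2 and Csf1r included. T cell markers read lower in 11 of 14 genes, with a median of -0.20. Past 1.5-fold, 2 were lower, against 3.36% of all genes, and 1 was higher, against 3.85%. They had sums of 25388 units with OX40L-Tg APC and 28934 units with Wt APC. Cd3e, of the T cell receptor complex, read 912 units with OX40L-Tg APC and 1452 units with Wt APC, and Cd4 read 1143 units with OX40L-Tg APC and 1410 units with Wt APC. Trat1, an adaptor of the T cell receptor, had the largest difference of the list in either direction, at 0.75, with 329.6 units with OX40L-Tg APC and 195 units with Wt APC, and Themis, a signalling protein of T cells, differed by 0.46. With the poly-A median subtracted, the B cell, class II and dendritic medians would all turn below 0 as well, since each is smaller than 0.59. The part of these markers in the differences of the NF-kB genes was not tested.

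Of the other markers, the extraction protocol in the labels names adipose tissue, but 4 of 5 adipocyte markers, Adipoq included, were below background on both arrays. The exception was Lipe, which encodes hormone-sensitive lipase and read 53.1 units with OX40L-Tg APC and 49.6 units with Wt APC. All 8 neutrophil markers were below background on both arrays. Of 6 markers of NK and CD8 T cells, 5 were below background on both arrays, Cd8a included, while Cd8b1, which encodes the CD8 beta chain, read 239 units with OX40L-Tg APC and 191 units with Wt APC. Erythroid markers summed to 247 units with OX40L-Tg APC and 1204 units with Wt APC, nearly all of it from the globin gene Hba-a1.

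**Figure D4:**
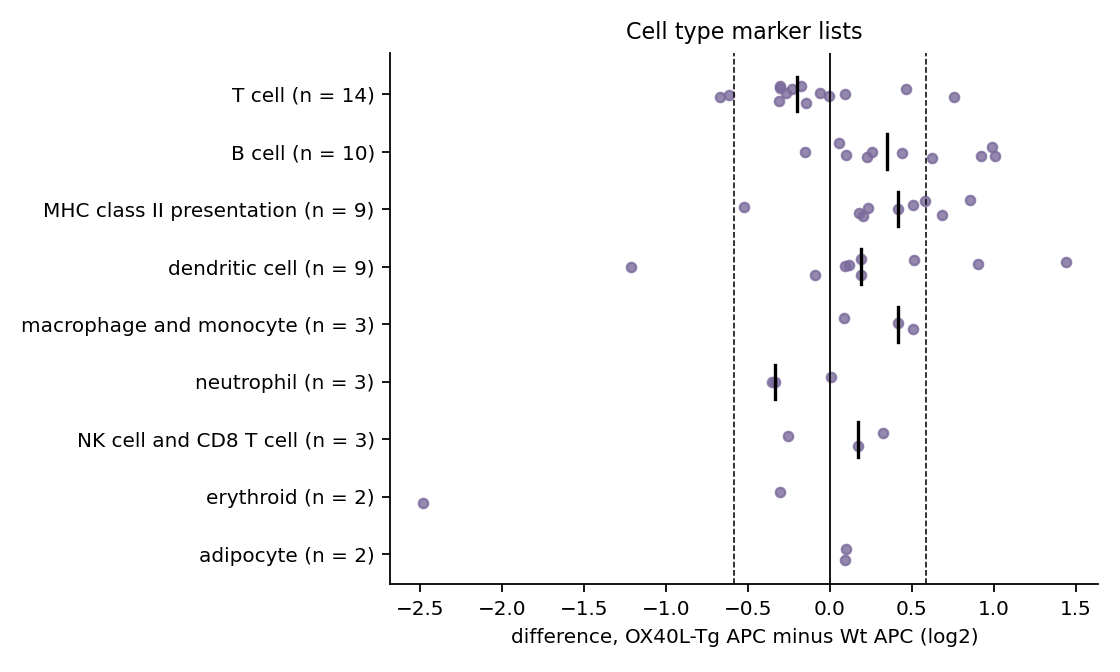
Difference between OX40L-Tg APC and Wt APC (log2) of each marker gene above the floor in 9 cell type lists, with a black bar at the median of lists of 3 or more genes and dashed lines at 1.5-fold in either direction. B cell and class II genes lie mostly to the right of 0 (medians of 0.35 and 0.41, which turn when the poly-A median is subtracted) and T cell genes mostly to the left (median of -0.20).

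Genes upstream of the subunits differed in both directions. In the canonical arm, 18 of 20 listed genes had a value, and all 18 were above the floor. Of these, 1 was at least 1.5-fold higher, against 3.85% of all genes, and 0 lower, against 3.36%, with a median of 0.02 and a range from -0.32 to 0.69. Map3k8, which encodes a kinase that binds p105, read 350.2 units with OX40L-Tg APC and 217 units with Wt APC, a difference of 0.69. Malt1, a protease in T cell receptor signalling to NF-kB, differed by 0.38, with its 3 probe sets between 0.38 and 1.21. Tradd, an adaptor of the TNF receptor, and Prkcq, a kinase that acts downstream of the T cell receptor, differed by -0.32 and -0.30.

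The list drawn up for the noncanonical arm also holds Ikbke, Tbk1, Tank, Azi2 and Traf3ip2, whose main known roles are in other pathways. Counts and medians of noncanonical genes in this text are those of the whole list. Of the 13 listed genes, 12 had a value, and all 12 were above the floor. Of these, 0 were at least 1.5-fold higher, against 3.85% of all genes, and 1 was lower, against 3.36%, with a median of 0.15 and a range from -0.75 to 0.56. Tnfrsf4, which encodes OX40 itself, read 6262 units with OX40L-Tg APC and 5650.0 units with Wt APC, a difference of 0.15. Tnfsf4, which encodes its ligand, read 128 units with OX40L-Tg APC and 154 units with Wt APC, a difference of -0.26. Traf1, an adaptor that is itself a known NF-kB target, differed by 0.56, and its other probe set by 0.52. The largest negative difference was that of Ikbke, an IkB kinase-related gene, which read 216 units with OX40L-Tg APC and 361 units with Wt APC. Traf5, an adaptor that binds OX40, and Traf3ip2, an adaptor of the IL-17 receptor, differed by -0.44 and -0.42.

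Of 22 genes of other IkB-like proteins and inhibitors above the floor, 14 read higher and 8 lower, with a median of 0.04. At least 1.5-fold higher were 2, against 3.85% of all genes, and 0 were lower, against 3.36%. Peli1, a ubiquitin ligase that restrains c-Rel in T cells, read 1034 units with OX40L-Tg APC and 607 units with Wt APC, with 4 probe sets between 0.55 and 0.80. Tnip2, which encodes an A20-binding protein, differed by 0.62. Nlrc5 and Nlrc3, both of the NLR family, differed by -0.58 and -0.42.

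Known NF-kB target genes of lymphocytes spread widely in both directions. Of 42 genes above the floor, 11 reached 1.5-fold upwards, against 3.85% of all genes, and 2 downwards, against 3.36%, with a median of 0.24. Il6, 1 of the 11, was below background on both arrays. With the floor at background, which kept 7983 genes in all, 10 of 38 target genes reached 1.5-fold upwards. The share of those 7983 genes that did so is not given here. The list was drawn from textbook knowledge with earlier results of these data known, so its direction is no independent evidence. Csf2, which encodes GM-CSF, read 1503 units with OX40L-Tg APC and 192 units with Wt APC, a 7.84-fold difference. Ier3, an early survival gene, read 400.2 units with OX40L-Tg APC and 170.2 units with Wt APC. Il2, the T cell growth factor and a target of c-Rel, read 205 units with OX40L-Tg APC and 90.9 units with Wt APC. In the other direction, Cxcl10, a chemokine that interferon also induces, was below background with OX40L-Tg APC and read 94.4 units with Wt APC.

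Among genes above the floor that have a promoter window, the consensus was in 12 of 32 target genes (37.5%), 4 of 16 other inhibitors, 2 of 11 canonical genes (18.2%) and 1 of 11 noncanonical genes (9.09%), against 6.20% of all such genes. It was in 32 of 319 genes at least 1.5-fold higher (10.03%) and 23 of 292 genes at least 1.5-fold lower (7.88%). Among the target genes with the largest differences, Ier3 held a match and so did Cxcl10, which read lower, while Csf2 and Il2 held none in these windows.

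Families of the other receptor-driven factors are set beside the NF-kB genes as values. Of 11 AP-1 genes above the floor, 5 reached 1.5-fold upwards, against 3.85% of all genes, and 0 downwards, against 3.36%. Fosl1, 1 of the 5, was below background on both arrays. With the floor at background, 4 of 8 AP-1 genes reached 1.5-fold upwards, and the share of all genes at that floor is not given here. Batf3 and Batf had the largest differences, 2.59 and 1.68. The AP-1 median was 0.40, and 0.65 with unmarked probe sets only. Of 10 genes of NFAT factors and calcineurin, 1 was at least 1.5-fold higher, against 3.85% of all genes, and 1 lower, against 3.36%, with a median of 0.11. With the mean of probe sets, or with unmarked ones only, 2 were higher. Nfatc1 differed by -0.90 and Ppp3ca, a catalytic chain of calcineurin, by 0.86. With the poly-A median subtracted, 3 AP-1 genes were past 1.5-fold upwards and 3 downwards, and 0 NFAT and calcineurin genes upwards and 4 downwards. The median of all genes is then -0.57, next to 1.5-fold lower, and the share of all genes past that line is not given here. With 1 array per condition no difference between these families could be tested. Under the same subtraction the medians of the family, of its pathway lists and of these lists all turned below 0, and their order is the same since 1 value is taken from all.

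**Figure D5:**
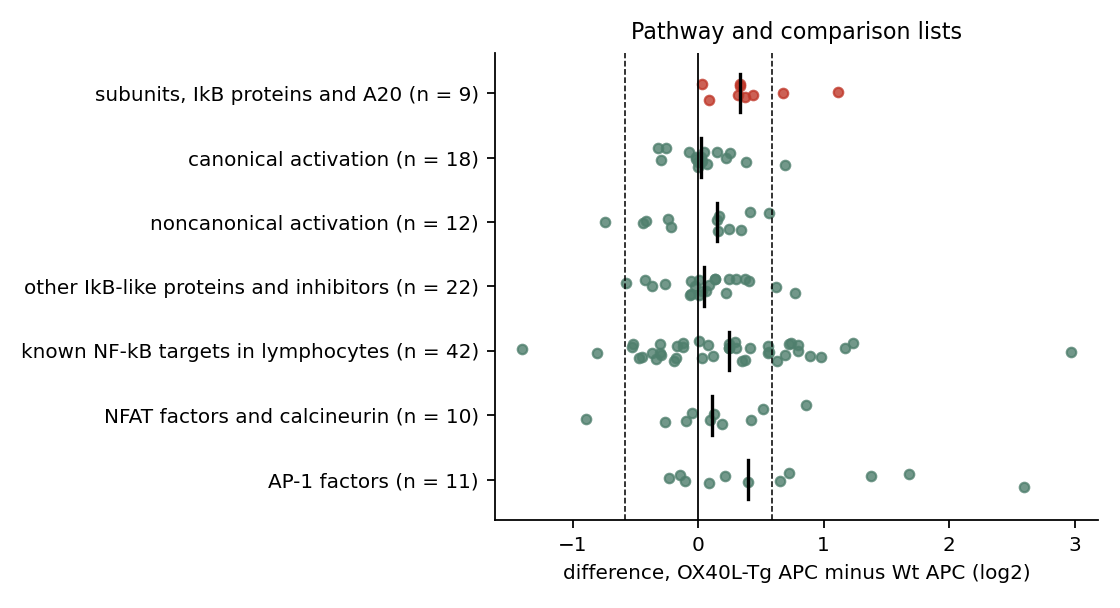
Difference between OX40L-Tg APC and Wt APC (log2) of each gene above the floor in the NF-kB family (top row), 4 pathway lists and 2 comparison lists, with a black bar at each median and dashed lines at 1.5-fold in either direction. The family (median of 0.33), the targets (0.24) and AP-1 factors (0.40) lie mostly right of 0, and all medians turn below 0 when the poly-A median of 0.59 is subtracted.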

How the data were processed

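CD4 T cells activated with OX40L-Tg APC or Wt APC were measured on 1 array each. The authors deposited linear intensities per probe set, which the submitters' processing notes credit to RMA. The version and the arrays normalized together are not given in the sources used here. RMA shrinks low intensities together, so differences of dim probe sets are understated. The values ran from 4.69 to 14686 units, and log2 was taken from them. The arrays correlated with r = 0.993 over 45141 probe sets. The platform annotation pairs 28898 probe sets with 1 symbol and 551 with several, and 15692 are unnamed. Entrez numbers of 28689 were found in the RefSeq table of GRCm38.p6, which changed 0 symbols. The floor was 3.88 (log2) on both arrays. The background level used 55 genes of other organs.

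The genes and lists were chosen with earlier results of these data known. Named genes are all members with every probe set, Tnfrsf4 and Tnfsf4, up to 4 genes of each pathway list and 2 of each comparison list with the largest difference at or above background, and defining markers. Pax5, Ebf1, Fcer2a, Cd79b, Blnk, H2-DMb1, H2-DMb2, Cd74, Irf8, Trat1, Themis, Cd8b1, Lipe, Clptm1, Hba-a1, Tbk1, Tank, Azi2, Fosl1 and Il6 were named after their values were seen. The pathway lists share 6 genes with each other, and members were kept out of them. No table of proteins was used. With 1 array per condition no test, error or p-value is given, and the number of arrays limits the precision.

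Python 3.11.15, numpy 2.4.6, pandas 2.3.3, statsmodels 0.14.6 and matplotlib 3.10.9 were used. The counting of genes past a fold was tested on simulated data. Alternatives changed the probe set of a gene, the floor, the scaling between arrays (all-gene median, lowess with span 0.3), an offset of 32 units, the members, and, added after seeing the data, the poly-A median.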

Additional observations from a re-analysis of the deposited data

Results flagged for a closer look

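The poly-A control probe sets, which are outside the comparison of genes, stood apart. Their median difference between OX40L-Tg APC and Wt APC was 0.59 on the log2 scale, with all 14 higher, whereas the median of the 18 hybridization controls was 0.10. The share of this shift in the differences of the NF-kB genes was not tested.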

How the results depend on the processing

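Subtracting the poly-A median, an alternative chosen after seeing the data, shifted the median of all genes to -0.57 and reversed every list median. The median was then -0.26 for the whole family, -0.38 for subunits and -0.21 for IkB proteins and A20, and -0.57 for canonical, -0.44 for noncanonical, -0.55 for other inhibitor and -0.35 for target genes. The shift is 1 value for all genes, so it follows from the construction of the alternative, and relative to all genes the family median stayed at 0.32. At least 1.5-fold higher were then 0 genes of the family, 0 subunits, 0 inhibitors, 0 canonical genes, 0 other inhibitors and 2 targets. At least 1.5-fold lower were 8 of 18 canonical, 5 of 12 noncanonical, 10 of 22 other inhibitor and 16 of 42 target genes. The median of all genes, at -0.57, then lies next to the 1.5-fold line itself. The share of all genes past that line is not given here, so these counts show no fall particular to the lists.

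Under the other 8 settings applied to the whole table, each family gene with a value read higher with OX40L-Tg APC, Relb by only 0.002 after lowess. Of these settings, only subtracting the all-gene median or lowess could have turned a sign. The floors leave the family genes in, the offset keeps the order of the arrays, and every probe set of the family read higher on the deposited scale. Without Bcl3 and Tnfaip3, or with unmarked probe sets only, 1 gene was at least 1.5-fold higher. Unmarked probe sets dropped Nfkb2 and left 0 subunits past 1.5-fold. With the mean of probe sets 2 canonical genes were at least 1.5-fold higher. With the floor at the 75th percentile 1 target gene was at least 1.5-fold lower, since Cxcl10 was no longer counted. Other inhibitors had 1 gene at least 1.5-fold lower after the all-gene median or lowess was subtracted, and 1 at least 1.5-fold higher after 32 units were added. The AP-1 median was 0.65 with unmarked probe sets, 0.56 with the floor at the 75th percentile or at background, and 0.28 with 32 units added. Of 296 recomputed values, 250 moved by less than the scatter between probe sets of 1 gene (a median SD of 0.09) or, for counts, by at most 1.5 times, and 46 moved further or reversed.

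No paired analysis was possible because there is 1 array per condition. With 1 array the spread between cultures is unknown, and the nearer an intensity lies to background, the more its difference is understated.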

Other observations

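The arrays carry 23 sets of nonspecific probes grouped by their number of G and C bases. With OX40L-Tg APC 22 of the 23 read lower, by -0.52 at the most, for probes of 25 such bases, which read 147 units with OX40L-Tg APC and 211 units with Wt APC. Ratios of 3′ to 5′ probe sets were 1.06 with OX40L-Tg APC and 1.03 with Wt APC for Gapdh, and 1.26 with OX40L-Tg APC and 1.24 with Wt APC for Actb.

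Nfkbiz, the IkB-like coactivator IkBζ, had probe sets that disagreed, with differences from -1.05 to 0.07 over 3 of them. Nfkbid, the gene of the related IkBNS, differed by 0.03. Cyld, a deubiquitinase that like A20 restrains the pathway, differed by -0.26 on the deposited scale. These 3 genes were chosen after their values were seen.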
